A study of Apis mellifera with 96 samples.

Results

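Transcript levels of Obp7 and Obp9, a pair of odorant-binding protein genes of the honey bee (Apis mellifera), are described here across worker role, day of capture, origin colony and single libraries. The members are the rows named Obp7 and Obp9, 2 of the 9935 genes in the count table. They were picked because earlier results on the same libraries showed their levels to vary with role and day, so the differences between roles and days are given below as a description, without tests. Untreated wild-type workers from 6 origin colonies (107, 109, 115, 122, 127 and 137) entered 3 nuclear hives as 1-day-old adults, and whole nurses and foragers were frozen after capture at day 7 or day 26. The libraries came from an in-house TagSeq protocol, in which each transcript is counted by a read close to its 3′ end. The fitted libraries were 22 of nurses at day 7, 24 of nurses at day 26, 22 of foragers at day 7 and 24 of foragers at day 26, with 2 to 4 libraries for each colony, role and day. Whether a library is from a single bee or from several is not stated in the labels, so p-values measure only the spread between these libraries. Age, capture day and time spent in the hive cannot be told apart.

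Odorant-binding proteins are small, soluble, secreted proteins that hold hydrophobic ligands. In the antenna they fill the fluid around the sensory dendrites and are thought to carry odorants to the receptors, and several are also made in other tissues of the bee. Obp7 and Obp9 belong to the classic class, which keeps the full set of conserved cysteines, while the C-minus class (Obp14 to Obp21 in the bee) has lost some of them. Nurses feed the brood inside the hive and foragers collect nectar and pollen outside it. In whole bees, fewer cells that make a transcript and less RNA per cell cannot be told apart.

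The 92 libraries held 197805 to 2300891 counts on genes, with a median of 1288440.5. A further library (colony 107 forager day 7 replicate 1) held 81736 counts and was left out. Of the 96 samples of the series, 93 had counts. In 6 of the 92 libraries, 3 of them labelled colony 115, the profile over the 13 mitochondrially encoded genes lay over 1.5 times farther from the library's own colony than from the nearest colony. Among 133 pairs of libraries from the same group, 3 pairs differed by under 0.25 of the median chi-square per gene, and the counts do not show whether they are separate samples. Leaving out the 6 libraries, or summing the 3 pairs, kept the direction of each Obp7 and Obp9 difference given below.

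Obp7 was highest in young nurses and lowest in old nurses, with both forager groups between. Levels are in CPM, computed here from the deposited counts. Counts were scaled by the library total after its adjustment with TMM, a scaling factor for each library that the fit also used. CPM values are therefore not the plain share of a gene in the library total. Nurses at day 7 had 12.5 ± 6.81 CPM (SD, n = 22), with 0.656 in the lowest library, a median of 12.1 and 24.2 in the highest. Nurses at day 26 had 3.45 ± 3.35 CPM (SD, n = 24), from 0 through a median of 2.46 to 14.0. Of the 22 nurse libraries of day 7, 11 lay above every nurse library of day 26 and 21 lay above their median. Foragers had 5.95 ± 3.66 CPM at day 7 (SD, n = 22; 0 to 15.1, median 5.34). At day 26 they had 7.66 ± 4.29 CPM (SD, n = 24; 0 to 17.8, median 7.16). The forager groups overlapped over nearly their whole range. From the highest, the order of the means was nurses at day 7, foragers at day 26, foragers at day 7 and nurses at day 26. Neighbours in this order differed by less than the larger SD of the pair, while the 2 nurse groups differed by 9.04 CPM, more than either SD.

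In the fit over all genes, Obp7 was 3.00-fold lower in nurses at day 26 than at day 7 (log2 fold change -1.59 ± 0.31 SE). The value was -2.50 without the libraries numbered 1, a setting in which colony 127 drops out, and -1.06 without the #2 libraries. In foragers the value went the other way, at 0.49 ± 0.29 SE on the log2 scale (0.31 without the libraries numbered 2 and 0.76 without those numbered 3). The difference between roles therefore had opposite signs on the days. Foragers stood at -0.94 ± 0.30 (log2, SE) against nurses at day 7, a 1.93-fold lower level, and at 1.13 ± 0.30 at day 26, a 2.18-fold higher level. The day 7 value was -0.61 without replicate 1 #2 of colony 127 nurses at day 7, and the day 26 value was 0.71 without the libraries numbered 2. The interaction, which is the forager minus nurse value at day 26 less that at day 7, was 2.07 ± 0.42 (log2, SE). Averaged over both days the roles were nearly level, at 0.09 ± 0.20 (log2, SE), and averaged over both roles day 26 stood at -0.55 ± 0.21. The latter was -0.21 without the #2 libraries and -1.08 without those numbered 1. Among all 6753 genes tested, 0.829% passed edgeR's interaction test at an adjusted p under 0.05. Obp7 was chosen for this pattern, so its own place among them is no evidence.

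**Figure D1:**
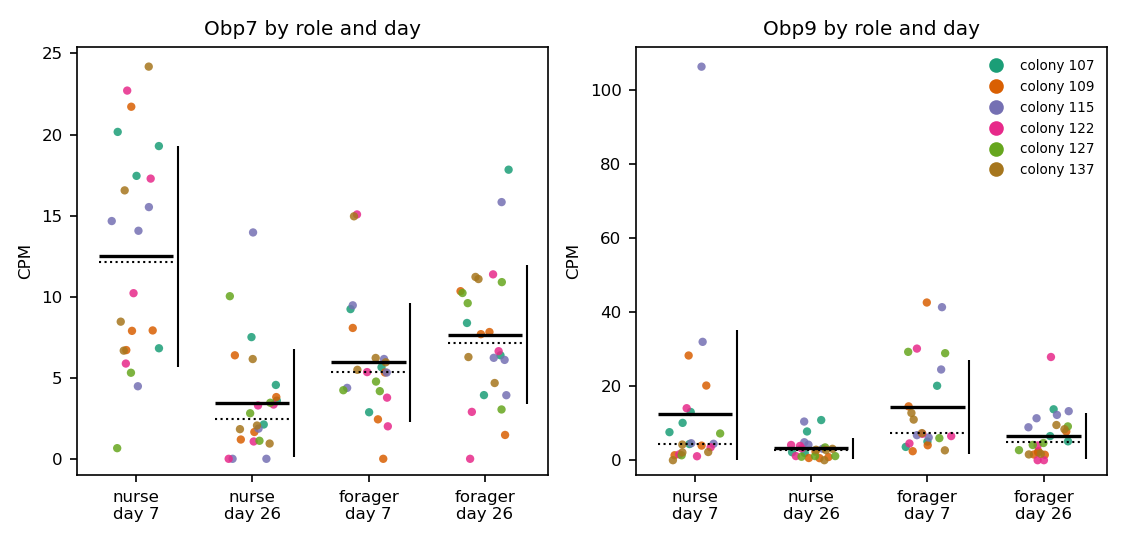
CPM of Obp7 (left) and Obp9 (right) in each of the 92 libraries by role and day, coloured by origin colony. Solid lines mark group means, dotted lines medians and vertical bars the mean ± SD, drawn no lower than 0. Obp7 has a mean of 12.5 CPM in nurses at day 7 and 3.45 in nurses at day 26, and a single Obp9 library of colony 115 reaches 106 CPM.

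Obp9 was higher at day 7 than at day 26 in both roles, and higher in foragers than in nurses by median on both days. Foragers at day 7 had 14.4 ± 12.7 CPM (SD, n = 22), from 2.43 through a median of 7.22 to 42.6. Foragers at day 26 had 6.67 ± 6.21 CPM (SD, n = 24), from 0 through 4.87 to 27.9. Among the foragers, 17 of the 22 libraries of day 7 lay above the median of day 26 and 5 above its highest library. Nurses at day 7 had 12.4 ± 22.7 CPM (SD, n = 22), with a range of 0 to 106 and a median of only 4.40. Nurses at day 26 had 3.22 ± 2.86 CPM (SD, n = 24; 0 to 10.8, median 2.78). The mean of young nurses rested on a single library, replicate 3 of colony 115. Its 95 counts, of a total of 763239 before the TMM adjustment, gave 106 CPM and 38.9% of the summed level of the group. Without it the group mean was 7.95 ± 8.94 CPM (SD, n = 21). By mean, young nurses came second of the 4 groups with or without this library. By median, they came after both forager groups. Neighbouring groups in either order overlapped and differed by less than the larger SD of the pair.

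On the log2 scale of the fit, day 26 stood at -1.49 ± 0.45 SE against day 7 in nurses (2.81-fold lower) and at -1.07 ± 0.36 in foragers (2.10-fold lower), with -1.28 ± 0.29 over both roles. Foragers stood above nurses by 1.16 ± 0.43 at day 26 (2.24-fold), by 0.74 ± 0.38 at day 7 and by 0.95 ± 0.29 over both days. The interaction was 0.42 ± 0.57 (log2, SE), which is smaller than its own error. The interaction, the role values and the day values moved with the libraries used. Without the single library of colony 122 foragers at day 26 replicate 1 the interaction was -0.00017, and without the libraries numbered 3 it was -0.61. The role value at day 26 was 0.74 without the same colony 122 library and 0.68 without the libraries numbered 1, and the value over both days was 0.34 without those numbered 1 and 1.47 without those numbered 3. In foragers the day value was -1.66 without those numbered 3 and -0.75 without colony 109. In nurses it was -1.78 without colony 137 and -1.04 without the libraries numbered 3. Over both roles it was -1.48 without colony 122 and -0.92 without colony 109. The role value at day 7 was -0.0041 without the libraries numbered 1, again with colony 127 left out, and 1.78 without those numbered 3, which include the colony 115 nurse library. Obp7 and Obp9 thus shared a lower level in nurses at day 26 than at day 7 and a higher level in foragers than in nurses at day 26. In foragers between days they had opposite signs, 0.49 ± 0.29 for Obp7 and -1.07 ± 0.36 for Obp9 (log2, SE). These contrasts share libraries, and the difference between the genes was not tested.

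The crossing of the roles by Obp7 was seen within most colonies. At day 26 foragers were higher than nurses in 6 of 6 colonies, with fitted log2 values from 0.89 to 1.67. At day 7 they were lower in 5 of 6, and between days nurses were lower at day 26 in 5 of 6. In colony 122 the nurse mean was 14.0 ± 7.46 CPM at day 7 and 1.93 ± 1.67 at day 26 (SD, n = 4 each), the largest nurse difference at -2.57 ± 0.74 (log2, SE). In colonies 109, 122 and 137 every nurse library of day 7 lay above every one of day 26. The exception in both counts was colony 127, whose nurse value between days was 0.52 ± 0.97 (log2, SE). Its young nurses had only 2 libraries, at 0.656 and 5.31 CPM, both with the same replicate number. The other samples labelled as young nurses of this colony had no counts. Fitted values put foragers at day 26 above those at day 7 in 6 of 6 colonies, but by no more than 0.91 on the log2 scale and with an SE of 0.65 or more in each. In colony 122 the forager CPM means had the other order, 6.55 ± 5.84 at day 7 and 5.23 ± 4.92 at day 26 (SD, n = 4 each).

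The colonies differed less in the overall level of Obp7. Averaged over the 4 groups of role and day, it ran from 5.04 CPM in colony 127 to 8.86 in colony 107. Neither the colony level (adjusted p = 0.466), nor the dependence of the role difference on colony (0.949), nor that of the day difference (0.723) passed edgeR's quasi-likelihood test with Benjamini-Hochberg adjustment over 6753 genes. These tests did not enter the choice of the gene. For comparison, 17.8% of the genes tested passed for colony level. For colony by role, edgeR called 0 genes (512 at an unadjusted p under 0.05) and DESeq2 called 5 of the 1516 it gave an adjusted p. For colony by day edgeR called 3 genes, or 0.0444% of those tested, and DESeq2 73 of 1778, with no adjusted p for either member.

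For Obp9 the colony level did pass (edgeR, adjusted p = 0.00910, with 17.8% of genes passing). Colony 115 was highest, at 18.4 CPM averaged over its 4 groups, with a median library of 9.67 and a highest of 106. Colony 137 was lowest at 4.50 CPM, with libraries from 0 to 12.8. The others lay at 8.43 (colony 109), 8.12 (127), 7.72 (107) and 7.04 CPM (122), closer together than the spread of their libraries (SD 5.16 to 12.1). The call rested on these ends. The adjusted p was 0.498 without colony 115, 0.0518 without colony 137 and 0.0558 without the library of 106 CPM alone. It was also above the threshold of 0.05 without the libraries numbered 2 (0.260), without those numbered 3 (0.0604) and without those marked #2 (0.106). Of the 6 libraries with a departing mitochondrial profile, 3 carry the colony 115 label. Without all 6 the adjusted p was 0.00884.

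**Figure D2:**
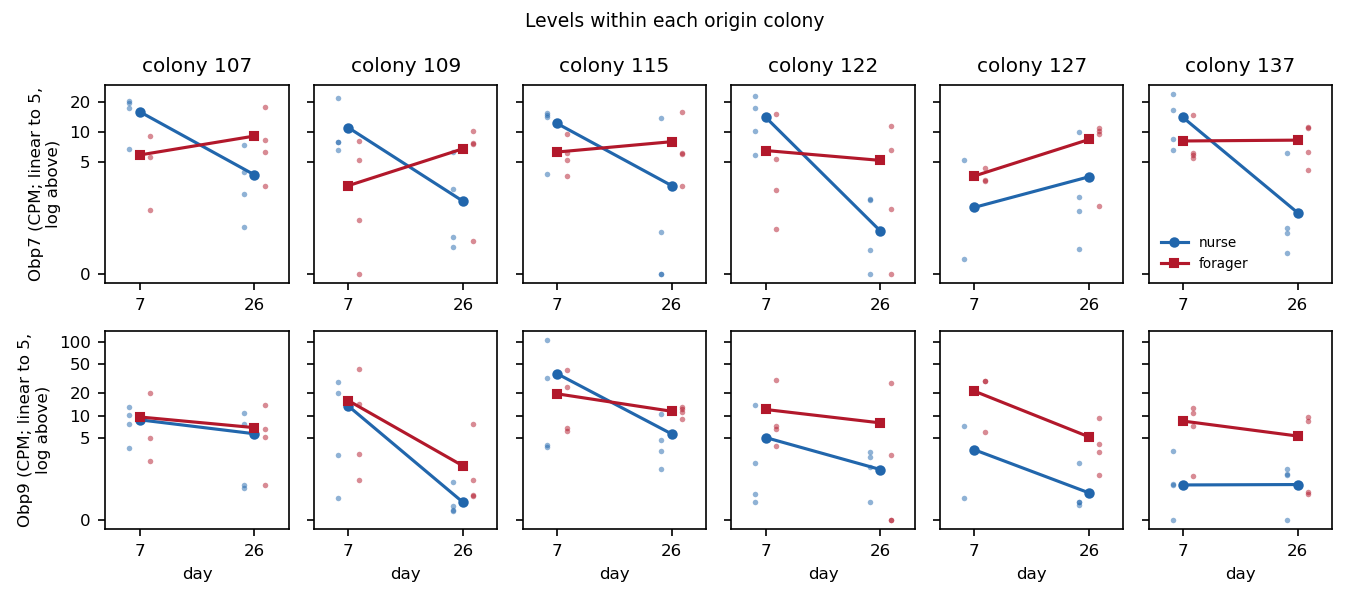
Levels of Obp7 (top) and Obp9 (bottom) at days 7 and 26 in each origin colony, as group means in CPM (large symbols joined by lines) and single libraries (small points), for nurses (circles, blue) and foragers (squares, red). The axis is linear up to 5 CPM and logarithmic above. The Obp7 lines of nurses and foragers cross in 5 of 6 colonies, with colony 127 apart, and Obp9 is highest in young nurses of colony 115.

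Within colonies, the Obp9 differences had mostly the same sign. Foragers stood above nurses at day 26 in 6 of 6 colonies (log2 0.32 to 1.66) and at day 7 in 5 of 6. By fitted value nurses at day 26 were below those at day 7 in 6 of 6 colonies, and foragers in 5 of 6. The size of the nurse difference varied widely, from -3.53 ± 1.01 (log2, SE) in colony 109 and -2.72 ± 0.80 in colony 115 to -0.05 ± 1.25 in colony 137. In colony 109 the nurse mean was 13.4 ± 12.9 CPM at day 7 and 1.08 ± 0.839 at day 26 (SD, n = 4 each), and in colony 137 it was 2.14 ± 1.73 and 2.16 ± 1.45. In no colony did all nurse libraries of day 7 lie above all those of day 26. Whether the day difference depends on colony did not pass (edgeR, adjusted p = 0.458), and the role difference did not either (0.855).

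Both genes were counted with few reads, and their libraries still differed by more than counting. The median library held 3 to 13.5 reads of Obp7 and 3 to 11.5 of Obp9, depending on the group. Obp7 had no read in 5 of 92 libraries, and a count of 0 (taken to allow up to 3 reads) limits it there to between 2.08 and 4.36 CPM. Obp9 had none in 4 of 92, with limits of 1.74 to 3.34 CPM. These limits, and the intervals given for single libraries, cover counting error only. Within groups of the same colony, role and day, the variance of the counts was 3.85 times that of counting for Obp7 and 9.92 times for Obp9. The median over 1676 genes with a mean of 5 to 15 CPM was 1.57, and 96.1% of these genes lay below Obp7 and 99.3% below Obp9. Without the library of 106 CPM the Obp9 value was 7.90, still above 99.2% of these genes.

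High Obp9 levels came from a minority of libraries. Of all 92, 12 held over 20 CPM, a level chosen after the values were seen. They were 7 of 22 foragers at day 7, 4 of 22 nurses at day 7, 1 of 24 foragers at day 26 and 0 of 24 nurses at day 26. By colony they were 4 of 16 in colony 115, 3 of 16 in colony 109 and 0 of 16 in colony 137. The top library, replicate 3 of colony 115 nurses at day 7, had an exact 95% Poisson interval of 86.0 to 130 CPM. The next of its group, replicate 1 of the same colony, stood at 32.0 CPM (23.7 to 42.1). The other libraries of that colony, role and day held 4.58 and 4.44 CPM. The top library also had 1112 CPM of Mrjp1, the major royal jelly protein made in nurse head glands, where the other young nurses of colony 115 had 64588 to 81669. Of the nurse libraries of day 7 it had the most unaligned reads (71.9%, group median 63.9%). In Obp7 the same library was the lowest of its colony, role and day, at 4.48 CPM against 14.1 to 15.5.

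Over young nurses as a group, Obp9 and Mrjp1 ran in opposite directions, on log2(CPM + 1) values (Pearson's r = -0.65, permutation p = 0.00182, adjusted p = 0.0146 over 8 relations; Spearman's rho = -0.41, permutation p = 0.0575, adjusted 0.419; n = 22). With colony means removed r was -0.72 (adjusted permutation p = 0.0110). Without the 2 libraries farthest from the median of Mrjp1, r was -0.23, so the size of r in young nurses rests largely on those libraries. Over deviations of log2 CPM from the group mean in all 92 libraries, these 2 included, Obp9 and Mrjp1 had r = -0.43. Obp7 and Mrjp1 gave r = 0.48 in young nurses (permutation p = 0.0312, adjusted 0.0833) and rho = 0.35 (adjusted 0.419). None of the other 6 relations, of either gene in the other groups, passed after adjustment.

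The other members of the family were split between directions in the role and day contrasts. The table names 17 other odorant-binding genes, of which 16 were tested and Obp13 was left out by the filter on low counts. In the interaction of role and day, 0 of the 16 passed with edgeR or DESeq2. Over all genes 0.829% passed with edgeR (0.489% higher, 0.341% lower), so a count of 0 among 16 is near the background. At an unadjusted p under 0.05 with edgeR there were 3 of the 16, beside 871 of all 6753 genes. Between roles over both days, 8 of 16 passed, 4 higher and 4 lower in foragers, against a background over all genes of 30.1% (15.2% higher, 14.8% lower). By class, 6 of 7 C-minus members passed (85.7%), and 2 of 9 members of the classic class (22.2%), that of Obp7 and Obp9. Between days 5 passed, 2 higher and 3 lower at day 26 (background 26.1%, with 13.7% higher and 12.4% lower). Group means of the tested members at day 7 in nurses ran from 8.57 CPM (Obp5) to 2096 (Obp14). Obp13 had 22.2 ± 32.2 CPM in nurses at day 7 (SD, n = 22) and 0.860 ± 0.961 in foragers (SD, n = 22), without a test. The median log2 value of the 16 was 0.22 between roles and -0.11 between days, beside 0.01 and 0.00 over all genes tested.

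Between roles at day 7, the members that passed were mostly lower in foragers, while the median log2 value of all 16 was 0.14, that is, higher. Of the 9 classic members, the class of Obp7 and Obp9, 1 passed (11.1%). Among all 16, 5 passed, 1 higher and 4 lower in foragers (background 20.2%, with 9.15% higher and 11.1% lower). Those lower were the C-minus genes Obp17 (-1.40 ± 0.19), Obp14 (-3.27 ± 0.49) and Obp21 (-0.54 ± 0.12) and the classic Obp3 (-1.26 ± 0.24), all log2 with SE and at adjusted p of 0.000430 or less with edgeR. Obp18 was higher (0.67 ± 0.14). Obp7 had -0.94 ± 0.30 in the same contrast, and Obp9 0.74 ± 0.38. At day 26, 4 of 16 passed, 1 higher and 3 lower (background 17.7%, with 8.77% higher and 8.94% lower). Obp17 (-1.12 ± 0.18), Obp21 (-0.59 ± 0.11) and Obp14 (-2.01 ± 0.44) were again lower in foragers and Obp4 (0.54 ± 0.14) was higher. Obp7 had 1.13 ± 0.30 in this contrast and Obp9 1.16 ± 0.43.

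Between days within a role the family was split as well. In nurses 4 of 16 passed, 1 higher and 3 lower at day 26 (background 13.4%, with 6.52% higher and 6.92% lower). Obp17 (-0.91 ± 0.18), Obp14 (-1.26 ± 0.44) and Obp10 (-0.32 ± 0.08) were lower and Obp16 (0.52 ± 0.12) was higher. Obp7 (-1.59 ± 0.31) and Obp9 (-1.49 ± 0.45) had the same sign as the falling members. In foragers 6 of 16 passed, 3 in each direction (background 18.9%, with 9.7% higher and 9.17% lower), with Obp4 (0.85 ± 0.15) and Obp16 (0.42 ± 0.12) higher and Obp10 (-0.28 ± 0.08) and Obp17 (-0.63 ± 0.18) lower among those of smallest adjusted p. Obp7 had 0.49 ± 0.29 there and Obp9 -1.07 ± 0.36. For colony level 2 of 16 passed (background 17.8%), Obp10 (adjusted p = 0.0411) and Obp17 (0.0472).

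**Figure D3:**
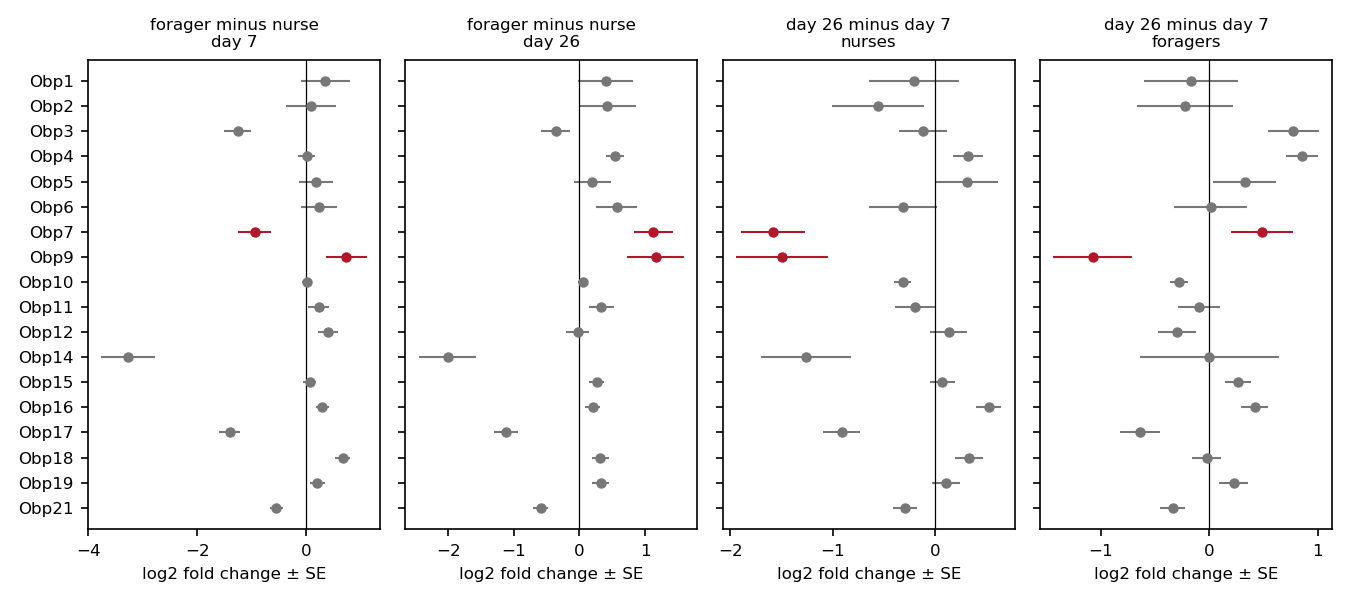
Log2 fold change (± SE) of each tested odorant-binding gene in 4 contrasts, foragers minus nurses at day 7 and at day 26 and day 26 minus day 7 in nurses and in foragers, with Obp7 and Obp9 in red. Obp7 stands at -0.94 between roles at day 7 and 1.13 at day 26, and in foragers between days Obp7 and Obp9 lie on opposite sides of 0.

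Neither gene moved with the abundant antennal members of the family. Obp1 and Obp2, known from the olfactory sensilla of the antenna, varied from 0 to 193 CPM and from 1.33 to 239 CPM between libraries. Their deviations from the group mean went together (Pearson's r = 0.95 over 92 libraries), as did those of Obp2 and Obp6 (0.86). Against Obp2, Obp7 gave r = -0.02 and Obp9 r = 0.00. Against Obp1 the values were -0.07 and 0.02. These are descriptions over libraries that share their preparation, on deviations of log2 CPM. The antennal list of 8 genes had 6 in the table, Orco and Or1 not being matched by symbol, and its summed level ran from 4.65 to 402 CPM with group medians between 125 and 204. Obp1 and Obp2 did not pass in any role or day contrast (smallest adjusted p = 0.384, edgeR). The 35 olfactory and gustatory receptor genes in the table were all below the filter, and their summed median lay between 17.3 and 18.5 CPM in the 4 groups.

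Markers of other tissues differed between the groups to unlike degrees, and their part in the Obp7 and Obp9 levels was not tested. The summed level of 6 royal jelly proteins had a median of 116258 CPM in nurses at day 7 (2014 to 207629) and 117856 at day 26 (1850 to 260450). In foragers it was 5462 at day 7 (584 to 42950) and 5857 at day 26 (1861 to 112967). That of 4 venom gland genes had medians of 12514 CPM (2335 to 26800) and 2355 (102 to 6186) in nurses at days 7 and 26, and of 5825 (330.3 to 15867) and 291 (81.6 to 9082) in foragers. That of 4 fat body genes had medians of 5318 CPM (205 to 18937) and 2008 (111 to 13593) in nurses and of 292 (105 to 1525) and 220.0 (105 to 5242) in foragers. The group medians of the muscle genes ran only from 1641 to 2334 CPM, and those of the eye genes from 143 to 244. For the nervous system they ran from 65.0 to 107 CPM and for the forager glands from 2129 to 9830. Each listed gene of all these tissues had reads. Unaligned reads made up a median of 63.9% and 65.4% in nurses and 68.0% and 70.1% in foragers at days 7 and 26.

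**Figure D4:**
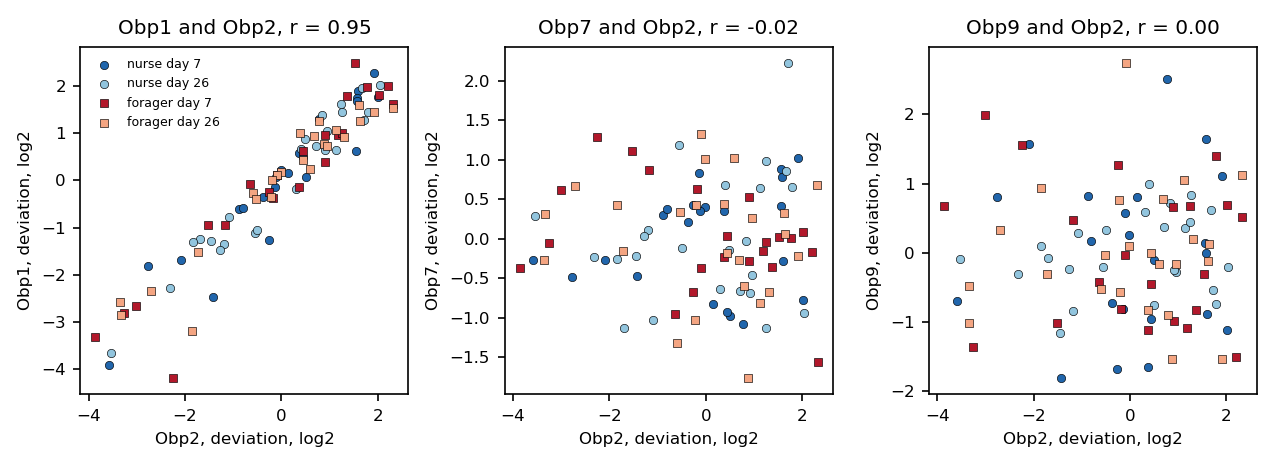
Deviation of each library from the mean of its colony, role and day group (log2 CPM) for Obp1, Obp7 and Obp9 against Obp2, over 92 libraries. Obp1 follows Obp2 (r = 0.95), while Obp7 (r = -0.02) and Obp9 (r = 0.00) show no slope.

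The pair did not follow each other either. Deviations of Obp7 and Obp9 over the 92 libraries had r = 0.10, and their means over the 24 combinations of colony, role and day had r = 0.32. Within the family the deviations of Obp7 were closest to those of Obp3 (r = 0.35) and Obp4 (0.29). Those of Obp9 ran against Obp21 (-0.52) and Obp17 (-0.45). Since the counts of a library share its total, a very abundant transcript can bear on such values.

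In the assembly Amel_HAv3.1, Obp7 lies in a run of odorant-binding genes in the order Obp5, Obp6, Obp2, Obp7, Obp3 and Obp4. The gene LOC727000, which begins before this run, overlaps Obp7, and by this order Obp5, Obp6 and Obp2 as well. Where genes overlap, the assignment of reads depends on whether strand was used in counting, which the sources used here do not give. LOC727000 itself had means of 3.77 to 5.01 CPM in the 4 groups, below the filter, with 4.39 CPM in nurses at day 7 and 3.77 at day 26. The group means of Obp7 gave r = 0.25 with those of Obp2 (n = 24 groups), 0.08 with Obp3 and -0.07 with Obp4. By library deviations (n = 92) the values were -0.02, 0.35 and 0.29, and Obp3 and Obp4 ranked 83 and 208 of 6752 genes. The genes most like Obp7 over the 24 group means were LOC100578734 (r = 0.67), LOC410469 (0.64) and LOC413168 (0.62), and among genes with a name Est-6, an esterase (0.53), the troponin TpnCI (0.51) and the cuticle gene Apd-1 (0.51). By library deviations they were LOC552546 (0.53), LOC551477 (0.49) and LOC552481 (0.49), with the ribosomal protein genes RpL35 (0.43) and Rpl41 (0.37) and the mitochondrial import gene Tom7 (0.36) among named ones.

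For Obp9 the most similar of 6752 genes was Adar, its neighbour in the same assembly, which encodes an enzyme that edits adenosines in RNA. Over the 24 group means r was 0.89. It was 0.90 without the young nurses of colony 115 and 0.88 without colony 115. Over library deviations r was 0.55 (rank 12), 0.53 without the library of 106 CPM and 0.47 without colony 115. Over 6699 pairs of adjacent tested genes the median r of group means was 0.03, and 11 pairs, or 0.164%, were as high as this one. By library deviations the median was 0.01, and 48 pairs, or 0.717%, were as high. These values are descriptions, and whether reads of one neighbour were counted for the other was not tested.

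Adar had 30.0 ± 17.4 CPM in nurses at day 7 and 22.5 ± 6.47 at day 26, and 33.9 ± 9.92 and 27.1 ± 9.34 in foragers (SD, n as for Obp9). Its fitted values had the signs of Obp9 but smaller sizes, at -0.38 ± 0.16 between days in nurses, -0.34 ± 0.15 in foragers and 0.27 ± 0.15 between roles at day 26 (log2, SE). Obp9 was not a fixed share of Adar across the groups. Summed over libraries there were 37.7 reads of Obp9 for each 100 of Adar in nurses at day 7 and 37.8 in foragers at day 7, but 14.0 in nurses and 25.8 in foragers at day 26. In the library of 106 CPM, of nurses at day 7, Obp9 had 95 reads and Adar 49, out of 310 and 823 summed over that group. This library raised the ratio of young nurses, and the near-equal values of the roles at day 7 rest on it. Next in likeness over group means were LOC725284 (r = 0.77) and LOC102655898 (0.75), and, among named genes, Amih (0.54) and PHRF1 (0.54). By deviations they were LOC726980 (0.63), LOC100576258 (0.63) and LOC107963975 (0.63), with Cryl1 (0.58) and Tspan6 (0.46) beside Adar among named genes.

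**Figure D5:**
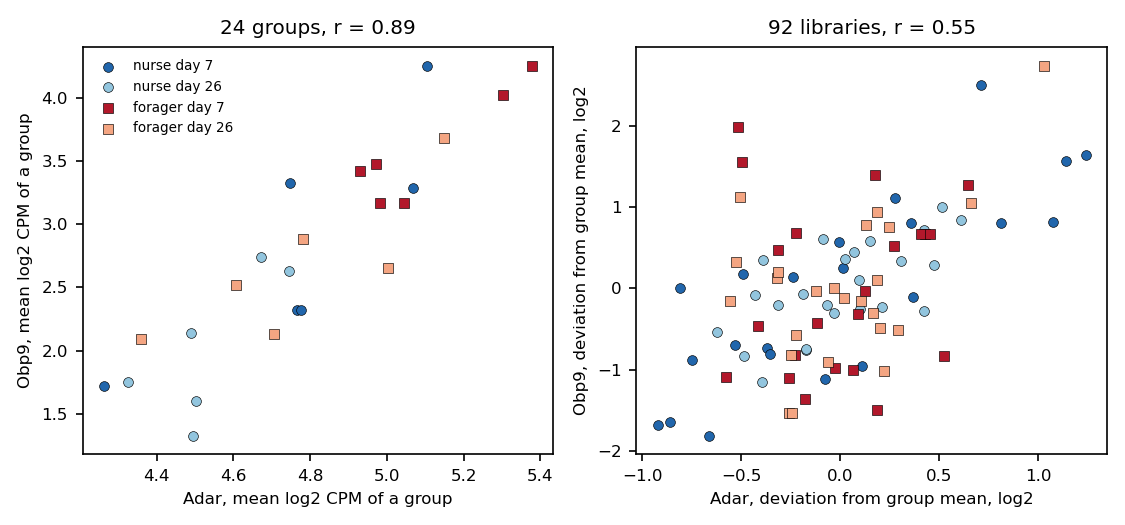
Obp9 against its neighbour Adar, as mean log2 CPM of the 24 combinations of colony, role and day (left, r = 0.89) and as deviations of 92 libraries from their group mean (right, r = 0.55). Colours and symbols give role and day, and the groups of highest Obp9 are also those of highest Adar.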

How the data were processed

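The deposited values are raw counts of TagSeq reads per gene, made by the authors. The submitters' processing notes name the tools HISAT2, SAMtools, FastQC and DESeq2. The counter, genome build and annotation are not given in the sources used, and coordinates are left out. Reads assigned to no gene (5 entries, a median of 87.5% of reads) stayed out of totals. Genes were kept with filterByExpr (minimum count 10 over role and day, 6753 genes), scaled by TMM and fitted with edgeR 4.0.16 (R 4.3.3, quasi-likelihood, robust) with a mean for each of 24 colony, role and day groups (68 residual degrees of freedom). The SE of a log2 fold change is its size divided by the square root of F. P-values were adjusted by Benjamini-Hochberg across all tested genes (threshold 0.05). Likeness is Pearson's r on log2 CPM (prior count 2). The rule names, for Obp7 and Obp9, the 3 genes of highest r and the 3 highest without a LOC name, and up to 4 other odorant-binding genes of smallest adjusted p in each contrast. Permutation tests were two-sided with 1e+05 draws. Neighbours come from RefSeq for Amel_HAv3.1. The fit was tested on simulated counts. Alternatives were DESeq2 1.42.0, its size factors, no filter, a replicate block, and fewer or summed libraries. The members, lists and rules were chosen with earlier results of these data known.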

Additional observations from a re-analysis of the deposited data

Results flagged for a closer look

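Among 42 combinations of gene, colony, role and day with 4 libraries, 11 had a library far from the other 3, by Dixon's test at the 95% level. Chance flags about 1 in 20 such groups where values are normally distributed. Low, discrete counts are not, so the share expected by chance here is not known.

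For Obp7, 3 of the flagged libraries were high, replicate 3 #2 of colony 109 nurses at day 7 (21.7 CPM), replicate 1 of colony 115 nurses at day 26 (14.0 CPM) and replicate 2 #2 of colony 137 foragers at day 7 (15.0 CPM). The others were low, replicate 3 of colony 115 nurses at day 7 (4.48 CPM) and replicate 2 of colony 127 foragers at day 26 (3.04 CPM). The last is among the 6 libraries with a departing mitochondrial profile.

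For Obp9, 5 were high. They were replicate 1 of colony 122 foragers at day 26 (27.9 CPM), replicate 3 of colony 122 foragers at day 7 (30.1 CPM), replicate 3 #2 of colony 109 foragers at day 26 (7.75 CPM), replicate 3 of colony 109 nurses at day 26 (2.32 CPM) and replicate 3 of colony 127 nurses at day 26 (3.46 CPM). In colony 137 nurses at day 26, replicate 2 was low at 0 CPM. The colony 122 forager library of day 7 was the shallowest fitted, and its 30.1 CPM came from 6 reads of 197805, with an exact 95% Poisson interval of 11.1 to 65.6 CPM.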

How the results depend on the processing

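Over the 20 results for Obp7 and Obp9, 2186 of 2196 recomputed values were counted as unchanged. For colony tests this means that the call stayed. For log2 values it means a move smaller than the spread between single libraries, with a small change of sign allowed. That rule is wide, since 0.95 falling to 0.34 for Obp9 between roles over both days passed it. Most of the recomputed values left out only 1 library, which can hardly move a mean that far. The count therefore says little about sizes. The Obp9 colony call was lost without colony 115 (adjusted p = 0.498), without colony 137 (0.0518), without the #2 libraries (0.106) and without replicate 3 of colony 115 nurses at day 7 (0.0558, edgeR). Leaving out each replicate number gave it 0.00699 to 0.260, and leaving out single libraries 0.00107 to 0.0558. Over the replicate numbers left out, the Obp9 interaction ran from -0.61 to 0.73 (log2), the Obp9 role difference at day 7 from -0.0041 to 1.78 and the Obp7 day difference in nurses from -2.50 to -1.28. Leaving out single libraries gave the last -1.97 to -1.25, and leaving out the #2 libraries gave it -1.06. The Obp9 interaction was -0.00017 without replicate 1 of colony 122 foragers at day 26 and up to 0.64 without other single libraries. The Obp7 role difference over both days, near 0 throughout, ran from -0.09 to 0.28. Leaving out single libraries or the 6 departing ones was chosen after seeing the data. Without replicate 1, colony 127 has no young nurses and drops out of every contrast. The number of other odorant-binding genes called ran from 5 to 9 between roles, 4 to 6 between days, 3 to 6 and 2 to 6 between roles at days 7 and 26, 1 to 5 and 2 to 6 between days in nurses and foragers, and was 0 for the interaction in each setting. DESeq2 gave no adjusted p for the members in colony by role and colony by day.

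With the replicate number as a replicate block the Obp7 interaction was 2.05 and the adjusted p of Obp9 for colony 0.00529, and no call changed. The deviations of same-numbered libraries had a median r of 2.0e-05 over 759 pairs (13.6% of them above 0.1). Libraries of other numbers had a median r of 0.0024, so the numbers were not taken to pair libraries. Few reads per library limit single values of both genes.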
